A study of Mus musculus with 12 samples.

Results

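The genes described here encode the pore-forming alpha subunits of voltage-gated potassium, sodium and calcium channels. They were chosen by symbol alone, as every row of the count table named Kcn followed by a, b, c, d, f, g, h, q, s or v and a number, every row named Scn, a number and a, and every row from Cacna1a to Cacna1s. The rule took 60 of the 25239 genes listed, and 52 of them passed the filter on low counts in brain against 7 in liver. RNA was sequenced from brain and liver of male wild-type C57BL6/J mice aged 24 months, 3 per group. The heat stress groups were kept at 40 ± 0.5 °C and a relative humidity of 60% ± 5% for 3 hours a day over 15 days, and the control groups were not heated. The labels do not say which brain region was taken. The question was which transcripts differ with repeated heat in the 2 organs of old animals.

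Each alpha subunit forms or contributes to a membrane pore that opens when the membrane voltage changes, and the mix of subunits sets how a neuron fires. Sodium channels carry the upstroke of the action potential, potassium channels end it and set the pace of the next, and calcium channels couple voltage to transmitter release and gene expression. Kv1 channels sit on axons, Kv2 channels on cell bodies, Kv3 channels allow fast spiking, Kv4 channels carry a transient dendritic current and Kv7 channels carry the M current, while the Kcnf, Kcng, Kcns and Kcnv subunits are silent alone and modify Kv2 channels. Skeletal muscle has its own sodium channel, Scn4a, and its own calcium channel, Cacna1s.

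The total count per library was 11889432 to 14597197 in control brain, 10552686 to 11147095 in heat stress brain and 10466198 to 15609040 in liver. The summed level of 8 neuronal markers was 6765 to 8976 CPM (counts scaled to library size) in brain and 15.2 to 34.3 CPM in liver, and that of 6 hepatocyte markers was 73221 to 113315 CPM in liver and 1.21 to 14.5 CPM in brain, as the tissue labels say. The 60 channel genes took 0.531%, 0.383% and 0.449% of all counts in control brain replicates 1, 2 and 3, and 0.343%, 0.311% and 0.407% in heat stress brain replicates 1, 2 and 3. The groups overlap in this share, since heat stress replicate 3 lies above control replicate 2. In liver the share was 0.00135% to 0.00571%, and there control replicate 1 and heat stress replicate 2 stood apart by their skeletal muscle markers. In these bulk samples fewer cells of a type and less RNA per cell cannot be told apart. CPM below were scaled to the effective library sizes of the trimmed mean of M values (TMM).

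Promoter sequence was at hand in RefSeq for 40 of the 60 genes, which have 50 start sites, on the build GRCm38.p6. Of the 250 bases before each start, 3 are shown to let the regulatory sequence be read beside the levels: Kcnc1 and Cacna1i, which lay lower in heat stress brain, and Kcnd2, which did not. Capitals mark the GC box, GGGCGG on either strand.
Kcnc1 (chr7:46396218-46396467, plus strand): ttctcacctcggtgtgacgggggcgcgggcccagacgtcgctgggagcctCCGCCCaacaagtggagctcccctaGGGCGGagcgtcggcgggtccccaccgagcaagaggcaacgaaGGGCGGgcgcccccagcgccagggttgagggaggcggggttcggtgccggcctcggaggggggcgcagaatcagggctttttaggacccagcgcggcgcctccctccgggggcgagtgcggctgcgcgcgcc
Cacna1i (chr15:80286988-80287237, plus strand): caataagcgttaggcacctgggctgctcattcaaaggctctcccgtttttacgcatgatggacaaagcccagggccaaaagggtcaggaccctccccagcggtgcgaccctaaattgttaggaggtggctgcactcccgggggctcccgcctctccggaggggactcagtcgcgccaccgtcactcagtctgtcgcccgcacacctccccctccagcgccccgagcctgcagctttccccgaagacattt
Kcnd2 (chr6:21215096-21215345, plus strand): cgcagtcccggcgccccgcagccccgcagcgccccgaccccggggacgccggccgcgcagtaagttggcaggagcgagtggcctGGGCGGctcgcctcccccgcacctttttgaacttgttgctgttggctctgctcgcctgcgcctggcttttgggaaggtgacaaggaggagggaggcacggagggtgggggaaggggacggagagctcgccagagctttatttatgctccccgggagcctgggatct
The Kcnc1 window holds 3 GC boxes and is 74.4% G and C, the Kcnd2 window holds 1 and is 68.8% G and C, and the Cacna1i window holds 0 and is 62.4% G and C. Over the channel genes, 23 of 50 windows (46%) hold a GC box against 32.7% of all 32851 RefSeq windows of this length, and the median G and C content is 60.6% against 52.4%. The heat shock element GAANNTTC is in 2 of the 50 windows (4%) against 6.69% of all windows, namely in 1 window each of Cacna1d and Kcna10. The cyclic AMP response element TGACGTCA is in 0 of the 50 against 1.55%, and the left site of the RE1 element, TTCAGCACC, is in 1 (2%) against 0.301%, that of Kcnh6. Both strands were searched, and a match describes these letters only. The GC box was found both in genes that lay lower with heat and in genes that did not.

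Among the abundant alpha subunits of control brain per transcript length was Kcna1, the axonal Kv1.1 subunit, at 58.6 ± 14.6 RPKM (CPM divided by the length of the longest transcript in kilobases; SD, n = 3). Kcnh3, a forebrain channel of the ether-a-go-go family, stood at 37.4 ± 12.4 RPKM, with a spread that overlaps that of Kcna1, and Kcnc1 at 30.3 ± 7.11 RPKM. Kcnc2 stood at 28.5 ± 8.36 RPKM, Scn8a at 26.6 ± 7.75 RPKM, Scn2a at 26.5 ± 3.09 RPKM and Kcna2 at 24.6 ± 4.51 RPKM, and these 4 neighbours overlap in their spread. Among calcium channels Cacna1a, the P/Q-type subunit of synaptic terminals, was the most abundant at 19.2 ± 4.56 RPKM, and Cacna1b, Cacna1e, Cacna1i and Cacna1g lay between 10.4 and 10.9 RPKM. Cacna1f, Kcna7, Kcna10, Kcnq1, Kcnv2, Scn4a, Scn10a and Scn11a did not pass the filter in brain, and 3 of the 60 genes stayed at or below 3 counts throughout the brain libraries.

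**Figure D1:**
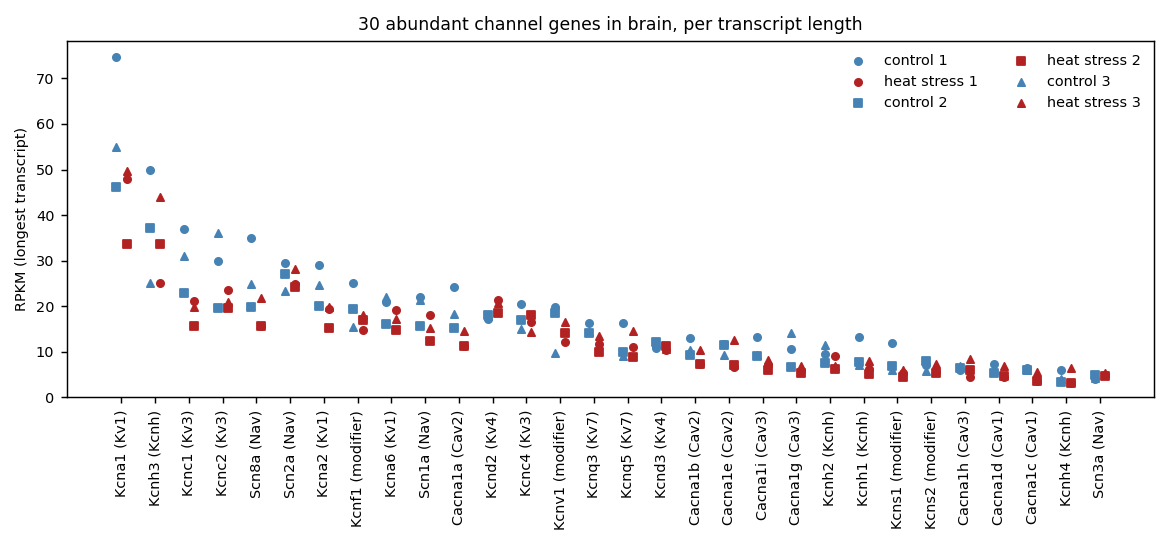
Level per transcript length (RPKM, longest annotated transcript) of 30 abundant channel genes in brain, one point per library, blue for control and red for heat stress, with the marker shape giving the replicate. Kcna1 has the highest control mean of the genes shown, though its points overlap those of Kcnh3. Control replicate 1 (blue circle) is often the highest point.

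Heat stress brain was compared with control brain to see which channel genes differ with repeated heat. Of the 52 tested channel genes, 15 (28.8%) lay lower in heat stress brain at an unadjusted p below 0.05 in edgeR's quasi-likelihood test, against 10.0% of all tested genes, and 0 lay higher, against 10.0%. Among the 15 were the fast-spiking potassium channel Kcnc1, the T-type calcium channels Cacna1g and Cacna1i and the P/Q-type calcium channel Cacna1a, with log2 fold changes of -0.80 to -0.57. None of the 52 passed an adjusted p of 0.05 (edgeR, adjusted over 14806 genes by the Benjamini-Hochberg method), where 0 genes (0%) passed in all. The log2 fold change was below 0 in 45 of the 52 (86.5%), against 50.3% of all tested genes, with a median of -0.25 against -0.003. With the length and GC offsets described below it was below 0 in 29 of the 52 (55.8%), against 49.7% of all. In 9 of the 52 all 3 heat stress libraries lay below all 3 controls, against 12% of all genes, and in 1, Kcnd2, all lay above, against 12.9%. The study's methods name DESeq2 along with DESeq. In DESeq2, 5 of the 31 channel genes that kept an adjusted p passed 0.05 as lower, against 3.86% of 7769 genes, and 0 as higher, against 4.09%. Among those 5 were Kcnc1, Cacna1g, Cacna1a and Cacna1i.

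**Figure D2:**
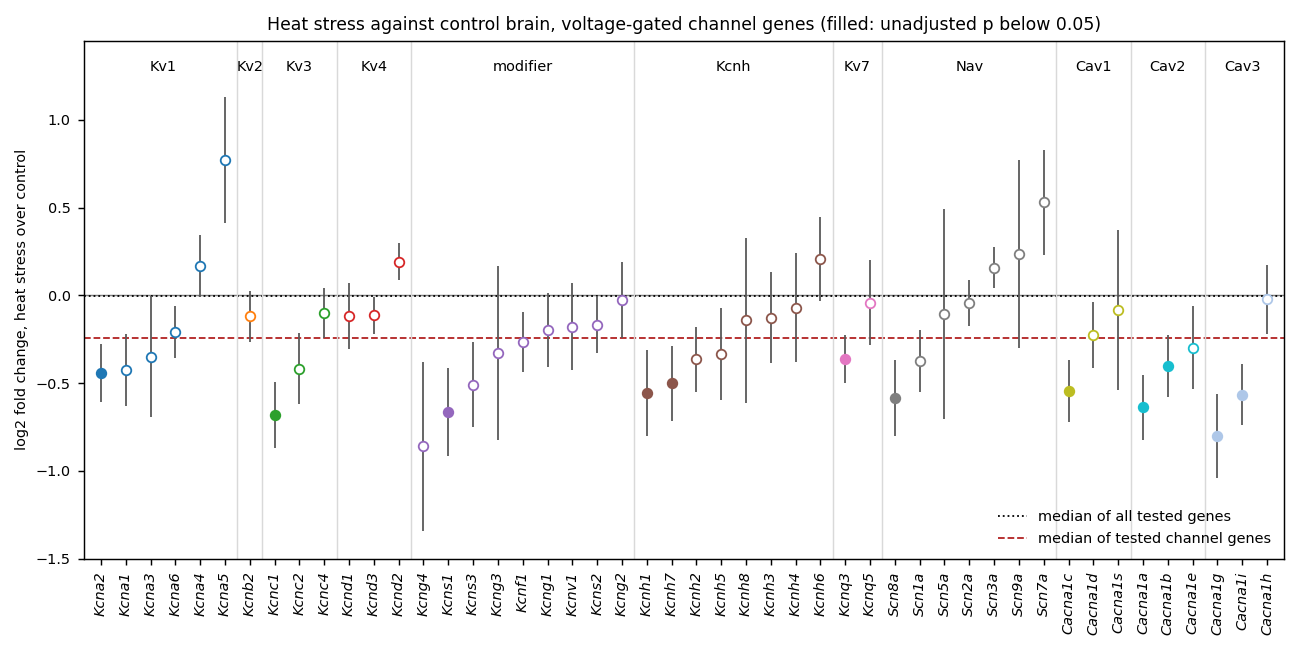
Log2 fold change of heat stress over control brain for 48 tested channel genes, grouped by family, with bars of 1 standard error from edgeR and filled points where the unadjusted p is below 0.05. The 12 filled points all lie below 0, the dashed line marks the median of all 52 tested channel genes at -0.25, and the dotted line that of all tested genes at -0.003.

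Over all tested genes the difference went with transcript length, with Pearson's r of -0.39 and Spearman's rho of -0.40 across 14562 genes, while across the 52 channel genes both were -0.17. For GC content r and rho were -0.26 and -0.29 over all genes, and -0.28 and -0.21 across the channel genes. For the control level rho was -0.10 over all genes and -0.46 across the channel genes, though the control level is itself part of the fold change. Genes are not independent replicates, and these correlations describe these libraries. Over all tested genes with an annotated length, the median log2 fold change was 0.31 in the shortest decile of genes, where the median length is 991 bases, and -0.20 in the longest decile, at 8378 bases. Of the 52 channel genes, 34 are in the longest quartile of transcripts, 4723 bases or more. In that quartile 22.3% of all genes lay lower at an unadjusted p below 0.05, as did 14 of the 34 channel genes (median -0.28 against -0.16 for all genes of the quartile). In the next quartile below it 0 of 13 channel genes passed, against 10.9% of all genes, although their median was -0.20. The 4 channel genes of the quartile below that had a median of -0.27, with 1 passing, and the 1 in the shortest quartile stood at -0.35. Both quartiles hold too few channel genes for an order of the medians by length to be read. With offsets per library fitted on length and GC content, 2 of the 52 lay lower at an unadjusted p below 0.05, against 5.02% of all genes, and 1 lay higher, against 6.38%. The median of the channel genes was then -0.05 and that of all genes 0.002. The log2 fold changes of Cacna1g, Kcnc1, Cacna1a and Cacna1i were then -0.42, -0.31, -0.26 and -0.15, with unadjusted p-values in edgeR of 0.0773, 0.0624, 0.0650 and 0.247. Among those that stayed lower was Kcns1, with a log2 fold change of -0.53 and an unadjusted p of 0.0440 in the edgeR model. The 1 higher was Scn3a at 0.22 and 0.0486. With the offsets the log2 fold change changed sign in 16 of the 52 channel genes, and with at least 1 of the 6 libraries left out it did so in 17, none of which had passed the unadjusted threshold. What gave the length trend was not tested.

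**Figure D3:**
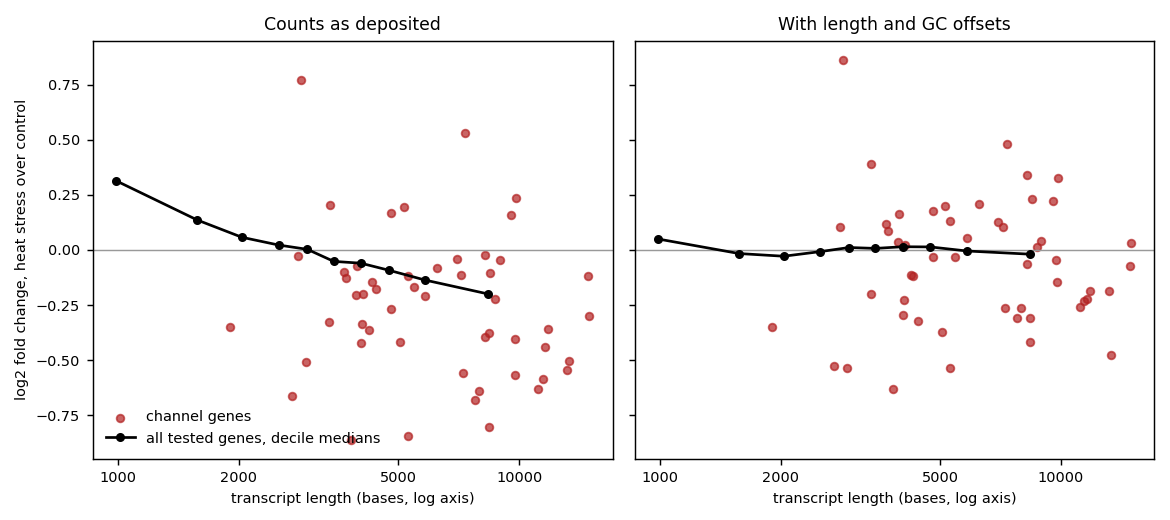
Log2 fold change of heat stress over control brain against the length of the longest transcript (log axis), with red points for the 52 channel genes and a black line through the medians of all tested genes in deciles of length. On the counts as deposited the line runs from 0.31 to -0.20; with length and GC offsets it stays between -0.03 and 0.05 and the channel genes spread around 0.

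Libraries also differed within the groups. Control replicate 1 held the highest of the 6 brain values in 25 of the 52 genes, and heat stress replicate 2 the lowest in 26. Without control replicate 1, 7 channel genes lay lower at an unadjusted p below 0.05, 6 of them among the 15, where 5.90% of all tested genes lay lower. Without heat stress replicate 1 there were 9, 6 of them among the 15, against 7.12% of all genes. Without heat stress replicate 2 there were 6, all among the 15, against 6.23%, and without control replicate 2 there were 20, 14 of them among the 15, against 13.3%. Kcnc1, Cacna1a, Cacna1g and Cacna1i stayed below 0.05 in each of the 6 fits without 1 library on the counts as deposited, as did 5 in all, which is 9.62% of the 52 channel genes against 3.61% of all tested genes. Markers of brain regions moved with the groups as well. Of 9 striatal markers, 8 lay higher in heat stress brain at an unadjusted p below 0.05, with a summed level of 519.9 to 924 CPM in control and 893 to 1971 CPM in heat stress. Of 7 choroid plexus markers, 3 lay lower, at 1249.6 to 2482 CPM against 259.8 to 1128 CPM. The 7 cortex and hippocampus markers summed to 3033 to 5271 CPM against 2638 to 3802 CPM and 0 passed. The 7 habenula and thalamus markers summed to 679 CPM in control replicate 3 and 165 to 339 CPM in the other 5, and 1 passed as lower. Of 6 astrocyte markers 1 lay lower, and of 6 microglia markers 1 lay lower and 2 higher. Interneuron markers summed to 922 to 997 CPM against 846 to 1029 CPM, and neuronal markers to 6765 to 8976 CPM against 7067 to 7577 CPM, with 0 passing in either list. Of 3 tested cerebellum markers 1 lay higher, and of 6 oligodendrocyte markers 0 passed. The median log2 fold change was 1.12 for striatal, -1.07 for choroid plexus, -0.78 for habenula and thalamus and -0.37 for cortex and hippocampus markers. It was -0.10 for interneuron and -0.07 for neuronal markers. No marker of these lists was at 0 in a brain library. The part of tissue sampling in the channel gene levels was not tested.

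Among Kv3 channels, whose rapid opening and closing lets neurons fire at high rates, Kcnc1 (Kv3.1; chr7:46396497-46438704 on mm10), the subunit of fast-spiking interneurons and auditory neurons, stood at 287, 177 and 241 CPM in controls and 164, 122 and 154 CPM in heat stress. Every heat stress library lay below every control, with control replicate 2 closest to heat stress. The log2 fold change of Kcnc1 was -0.68 ± 0.19 (SE) with an adjusted p of 0.170 in edgeR (quasi-likelihood, Benjamini-Hochberg) and 0.0187 in DESeq2, in a range of 0.0187 to 0.641 over 17 alternative settings. Kcnc2 (Kv3.2) was at 151, 98.6 and 182 CPM against 119, 98.7 and 106 CPM, and control replicate 2 lay under all heat stress libraries. Kcnc2 did not pass (log2 fold change -0.42 ± 0.20, edgeR adjusted p = 0.276), and its value was -0.21 without control replicate 3 and -0.63 without control replicate 2. Kcnc4 (Kv3.4) stood at -0.10 ± 0.14, at 0.12 with length and GC offsets, and reached 0.03 without 1 library.

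Kv1 channels line axons and terminals and hold back repetitive firing. Kcna2 (Kv1.2) was at 337, 233 and 284 CPM in control brain and at 224, 176 and 229 CPM in heat stress brain. The groups did not overlap, but the highest heat stress value and the lowest control value lie close together. Kcna2 differed by a log2 fold change of -0.44 ± 0.17 with an edgeR adjusted p of 0.204, and by -0.22 with length and GC offsets. Kcna1 (Kv1.1) was at 301, 186 and 221 CPM against 193, 135 and 200.1 CPM, with overlap, and its log2 fold change was -0.42 ± 0.21 (edgeR adjusted p = 0.280) and -0.21 without control replicate 1. Kcna4 (Kv1.4), a subunit of rapidly inactivating channels in axons, was at 18.1, 22.5 and 21.0 CPM against 21.8, 18.4 and 28.9 CPM and its groups overlapped. The highest fold change of all 52 genes was that of Kcna5 (Kv1.5), a subunit also known from heart, vessels and microglia. Kcna5 was at 41, 86 and 46 counts in control and 101, 63 and 93 counts in heat stress, or 2.81, 7.50 and 3.72 CPM against 9.33, 5.64 and 8.78 CPM. Control replicate 2 and heat stress replicate 2 overlap, and the log2 fold change of 0.77 ± 0.36 had an edgeR adjusted p of 0.267. Without control replicate 2 it was 1.27 and without control replicate 1 it was 0.50.

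Kcnb2 (Kv2.2), a delayed rectifier of neuronal cell bodies, was at 25.4, 24.7 and 20.9 CPM in control and 25.0, 18.5 and 21.8 CPM in heat stress, with overlap and a log2 fold change of -0.12 ± 0.15, which ran from -0.24 to -0.016 without 1 library. Of the 3 Kv4 genes, whose channels carry the transient current of dendrites, 0 passed the unadjusted threshold. Of all tested genes 10.0% passed in each direction. Kcnd2 (Kv4.2) was at 88.9, 92.9 and 91.5 CPM in control and at 110.2, 95.2 and 107 CPM in heat stress. All 3 heat stress values lay above all 3 controls, at a log2 fold change of 0.19 ± 0.10 (edgeR adjusted p = 0.320). Kcnd3 (Kv4.3) stood at -0.11 ± 0.10 and Kcnd1 (Kv4.1) at -0.12 ± 0.19 in log2 fold change, at 0.10 and 0.13 with length and GC offsets, and Kcnd1 reached 0.03 without 1 library.

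The 9 tested modifier subunits all had a log2 fold change below 0, from -0.86 (Kcng4) to -0.03 (Kcng2), with a median of -0.27, and 1 (11.1%) passed the unadjusted threshold as lower, against 10.0% of all tested genes. With length and GC offsets Kcng1 stood at 0.02 and Kcng2 at 0.11, and without 1 library Kcng2, Kcng3 and Kcnv1 reached 0.11, 0.04 and 0.009. The 1 that passed was Kcns1 (Kv9.1), at 32.2, 18.3 and 16.4 CPM against 14.4, 12 and 16.0 CPM. Its groups did not overlap, with control replicate 1 far above the other controls, and its log2 fold change was -0.66 ± 0.25 (edgeR adjusted p = 0.204) and -0.30 without control replicate 1. Kcng4 (Kv6.4) was at 14.1, 9.95 and 18.4 CPM against 14.8, 3.31 and 5.29 CPM, so that heat stress replicate 1 lay with the controls, and its log2 fold change was -1.72 without that library and -0.49 without heat stress replicate 2. Of the 8 Kcnh genes, which encode ether-a-go-go, Erg and Elk channels, 2 (25%) were lower at the unadjusted threshold, against 10.0% of all tested genes. Kcnh1 (Eag1) was at 96.1, 56.4 and 52.0 CPM against 44.8, 37.4 and 57.1 CPM and Kcnh7 (Erg3) at 11.9, 9.51 and 7.37 CPM against 6.74, 6.09 and 7.56 CPM, and both overlapped between groups. Their log2 fold changes were -0.56 ± 0.24 (Kcnh1) and -0.50 ± 0.22 (Kcnh7), with edgeR adjusted p-values of 0.243 and 0.238. Without control replicate 1 they were -0.22 and -0.31. Kcnh7 shares 696 exonic bases with the antisense gene Gca. Kcnh3 (Elk2) was spread widely within both groups, at 185, 138 and 93.0 CPM against 93.0, 125 and 162 CPM.

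Kv7 channels carry the M current, a slow potassium current that limits bursts of spikes. Kcnq3 (Kv7.3) was at 194, 168 and 170.2 CPM in control brain and at 138, 117 and 159 CPM in heat stress brain. The groups did not overlap, and its log2 fold change was -0.36 ± 0.14 (edgeR adjusted p = 0.205), and -0.18 with length and GC offsets. Kcnq5 stood at -0.04 ± 0.24 in log2 fold change, at 0.13 with length and GC offsets, and between -0.25 and 0.26 without 1 library.

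Of 7 tested sodium channel genes, 1 (14.3%) passed the unadjusted threshold as lower, against 10.0% of all tested genes. Scn8a (Nav1.6), the channel of nodes and the axon initial segment in adults, was at 401, 226 and 285 CPM in control and at 179.8, 179 and 249 CPM in heat stress, and heat stress replicate 3 lay above control replicate 2. The log2 fold change of Scn8a was -0.58 ± 0.22 (edgeR adjusted p = 0.202), -0.34 without control replicate 1 and -0.23 with length and GC offsets. Scn1a (Nav1.1), the main sodium channel of many inhibitory interneurons, was at 185, 131 and 179 CPM against 152, 103 and 127 CPM, with overlap, and did not pass (-0.38 ± 0.18, edgeR adjusted p = 0.270). The log2 fold change of Scn1a ran from -0.53 to -0.24 without 1 library, with an unadjusted p in edgeR below 0.05 in 2 of these fits. Scn2a (Nav1.2) of excitatory neurons was at 262, 241 and 208 CPM against 223, 216 and 251 CPM, and its log2 fold change was -0.04 ± 0.13. Scn3a (Nav1.3), known for its high level before birth, was at 38.2, 46.9 and 40.7 CPM against 46.6, 43.9 and 49.8 CPM (0.16 ± 0.12, and 0.09 to 0.24 without 1 library). Scn7a, a sodium sensor that voltage does not gate in the usual way, was at 3.50, 6.37 and 5.10 CPM against 9.05, 7.70 and 4.72 CPM (0.53 ± 0.30). Its log2 fold change ran from 0.32 to 0.75 without 1 library. The highest was without heat stress replicate 3, where its unadjusted p in edgeR was below 0.05.

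All 9 tested calcium channel genes had a log2 fold change below 0 on the counts as deposited. With length and GC offsets 4 of the 9 stood above 0, namely Cacna1d at 0.01, Cacna1e at 0.03, Cacna1s at 0.21 and Cacna1h at 0.34, and without 1 library Cacna1s reached 0.27 and Cacna1h 0.16. Among Cav2 channels of synaptic terminals, Cacna1a (chr8:84388440-84640246) was at 191, 120.2 and 145 CPM in control and at 89.1, 88.6 and 116 CPM in heat stress. The groups did not overlap, and the log2 fold change was -0.64 ± 0.18 with an adjusted p of 0.170 in edgeR and 0.0259 in DESeq2 (0.0259 to 0.541 over the settings). Cacna1a shares 435 exonic bases with the antisense gene Gm16183, which the deposited counts do not list. Cacna1b, the N-type subunit, was at 127, 89.7 and 101 CPM against 70.3, 70.0 and 100.2 CPM, so heat stress replicate 3 reached into the controls (-0.40 ± 0.18, edgeR adjusted p = 0.245; -0.25 without control replicate 1 and -0.05 with length and GC offsets). Cacna1e, the R-type subunit, was at 174, 171 and 137 CPM against 98.1, 105 and 189 CPM, where heat stress replicate 3 was the highest of the 6 (-0.30 ± 0.24; -0.66 without that library and -0.13 without heat stress replicate 1). Among L-type channels, which couple calcium entry to transcription, Cacna1c was at 85.0, 78.7 and 77.5 CPM against 47.0, 45.5 and 72.7 CPM, without overlap. The log2 fold change of Cacna1c was -0.55 ± 0.18 (edgeR adjusted p = 0.172), and -0.19 with length and GC offsets. Cacna1d was at 63.3, 46.5 and 52.8 CPM against 39.0, 39.9 and 60.4 CPM, with overlap (-0.22 ± 0.19; -0.46 without heat stress replicate 3, where its unadjusted p was below 0.05, and -0.10 without control replicate 1), and shares 589 exonic bases with the antisense gene Chdh, whose reads could be mixed with its own.

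T-type channels open near the resting potential and drive burst firing in the thalamus, and 2 of the 3 genes (66.7%) passed the unadjusted threshold as lower, against 10.0% of all tested genes, and 0 with length and GC offsets. Cacna1g (Cav3.1; chr11:94408391-94474198) was at 89.1, 55.7 and 118 CPM in control and at 48.8, 43.8 and 57.8 CPM in heat stress. Control replicate 3 had the highest value, and control replicate 2 lay between heat stress replicates 1 and 3. The log2 fold change was -0.80 ± 0.24 with an adjusted p of 0.170 in edgeR and 0.0240 in DESeq2 (0.0240 to 0.541 over the settings), and it ran from -1.05 without control replicate 2 to -0.53 without control replicate 3. Cacna1i (Cav3.3; chr15:80287238-80398279) was at 128, 87.5 and 90.4 CPM against 68.2, 58.8 and 79.9 CPM, without overlap (-0.57 ± 0.17; adjusted p 0.170 in edgeR and 0.0427 in DESeq2, in a range of 0.0427 to 0.692), and its log2 fold change was -0.37 without control replicate 1. Cacna1h (Cav3.2) was at 49.4, 52.9 and 55.8 CPM against 37.2, 49.6 and 68.8 CPM, a log2 fold change of -0.02 ± 0.20.

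**Figure D4:**
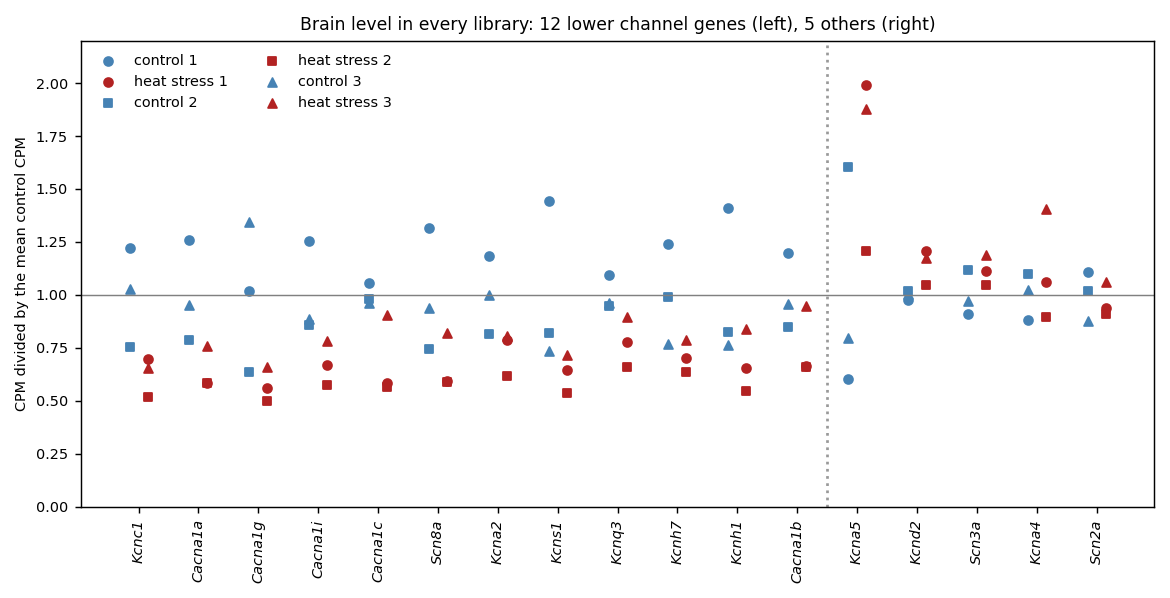
CPM of each brain library divided by the mean control CPM of the same gene, for 12 of the genes lower at an unadjusted p below 0.05 (left of the dotted line) and 5 others (right), blue for control and red for heat stress, with the marker shape giving the replicate. Among the 12, heat stress values sit below 1 in every library, while control replicate 1 (blue circle) is above 1 throughout; Kcna5 and Kcnd2 show the opposite order for heat stress.

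Auxiliary subunits and anchoring partners of these channels were read from a separate list. Of 46 tested, 8 (17.4%) lay lower and 2 (4.35%) higher at an unadjusted p below 0.05 in edgeR, against 10.0% of all tested genes in each direction, with a median log2 fold change of -0.07. At an adjusted p of 0.05, 0 of them passed, and 0 of all tested genes. Dpp6, the Kv4 partner, stood at 221 ± 14.1 CPM (SD, n = 3) in control and 162 ± 20.7 CPM in heat stress, a log2 fold change of -0.45 ± 0.13. Cntnap1 and Nfasc, adhesion proteins of the node of Ranvier region, stood at -0.47 ± 0.14 and -0.55 ± 0.18. The Kv1 beta subunit Kcnab3 stood at -0.68 ± 0.22, the adaptor Ank2 at -0.40 ± 0.14 and the Kv2 partner Amigo1 at -0.36 ± 0.13. The 2 higher were Kcnab1, another Kv1 beta subunit, at 0.44 ± 0.18, and Fgf12, a sodium channel partner, at 0.34 ± 0.14. With length and GC offsets 4 of the 46 (8.70%) lay lower and 3 (6.52%) higher, against 5.02% and 6.38% of all tested genes. Dpp6 at -0.25, Kcnab3 at -0.60 and Fgf12 at 0.28 were among them, while Cntnap1, Nfasc, Ank2, Amigo1 and Kcnab1, at -0.18, -0.17, -0.03, -0.12 and 0.36, did not pass. Of 12 tested related channels that the symbol rule leaves out (Hcn, calcium- and sodium-activated potassium channels and Nalcn), 1 (8.33%) lay lower against 10.0% of all tested genes, the BK channel gene Kcnma1, at 66.8 ± 3.86 CPM against 51.2 ± 5.07 CPM.

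In liver, the channel genes were few and low. Of the 60 genes, 11 had 0 counts in all 6 liver libraries, 24 had at most 3 counts in every liver library, and 18 exceeded 10 counts in at least 1. Between control brain and control liver, 51 of 53 tested channel genes were higher in brain at an adjusted p below 0.05 in edgeR, against 44.2% of all tested genes, and 1 was higher in liver, against 36.1%. Only 7 of these genes passed the filter in liver on its own, so most entered this fit through their level in brain, the filter largely set their direction, and the count is a description. Without liver control replicate 1 the count higher in brain was again 51. The 1 higher in liver was Kcnq1 (Kv7.1), a channel of epithelia and heart, at 10, 13 and 9 counts in control liver and a log2 difference, brain minus liver, of -2.0 ± 0.46. Kcnq1 shares 121 exonic bases with the antisense gene Kcnq1ot1. The fast-spiking subunit Kcnc2, with 98.6 to 182 CPM in control brain, had 0 counts in every liver library, a result that allows up to 3 counts per library.

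The liver libraries did not hold the same channels. The skeletal muscle calcium channel Cacna1s, the voltage sensor of muscle contraction, had 82, 4 and 2 counts in control replicates 1 to 3 and 11, 303 and 4 counts in heat stress replicates 1 to 3. Scn4a, the muscle sodium channel, had 20, 0 and 2 counts against 1, 71 and 1, and Kcna7 (Kv1.7), a potassium channel known from muscle, had 12, 0 and 0 counts against 2, 71 and 0. Control replicate 1 and heat stress replicate 2 were thus the high libraries for each of the 3 genes. Cacna1s shares 1309 exonic bases with the antisense gene Gm37759, which the deposited counts do not list. The 11 skeletal muscle markers summed to 490.1 CPM in control replicate 1 and 2614 CPM in heat stress replicate 2, against 1.03 to 8.28 CPM in the other 4, where no marker exceeded 19 counts and, in control replicate 3, Acta1, Ckm, Myh2, Tnnt3, Atp2a1, Ryr1 and Mb were at 0. From control replicate 1 to heat stress replicate 2 the CPM of Cacna1s was 3.99 times higher (95% exact counting interval 3.12 to 5.16), that of Scn4a 3.83 times (2.31 to 6.65) and that of Kcna7 6.39 times (3.44 to 12.9), and the muscle marker sum was 5.33 times higher. The single muscle markers ran from 3.33 (Myh1) to 12.2 (Myh4) times. These intervals cover counting error only. Kcng4 had 2 counts in control replicate 1, 18 in heat stress replicate 2 and 0 in the other 4, and Kcnc1 had 12 and 18 in those libraries and 0 or 1 in the other 4. The column headers of control replicate 2 and heat stress replicates 1 and 3 end in 2nd. Those of control replicates 1 and 3 and heat stress replicate 2 do not. The meaning of that ending is not given, and its part in these differences was not tested.

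Another set of channels had its highest liver counts in control replicate 1. Scn1a had 15 counts there and 0 or 1 elsewhere, Scn2a 14 and 0 to 2, Kcnq3 11 and 0, and Kcnd2 9 and 0. Cacna1e had 14 counts there and 0 to 6 elsewhere. The neuronal markers summed to 34.3 CPM in control replicate 1 against 15.2 to 19.2 CPM in the other 5. Syt1 took the most counts of these markers in every liver library, with 246 in control replicate 1 and 129 to 217 in the other 5. The sum therefore understates how far other neuronal markers differed. Snap25 had 132 counts in control replicate 1 and 0 to 14 elsewhere, and Eno2 28 and 0 to 11. What brought these reads into the library was not tested.

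**Figure D5:**
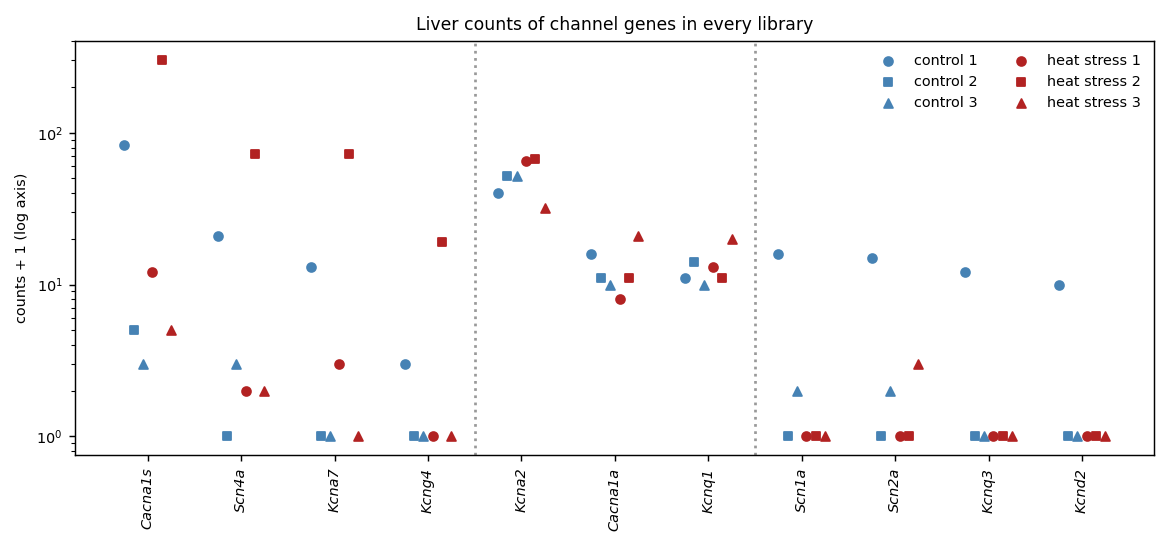
Counts plus 1 (log axis) of 11 channel genes in each liver library, blue for control and red for heat stress, with the marker shape giving the replicate. Cacna1s, Scn4a, Kcna7 and Kcng4 (left) are high in heat stress replicate 2 and, but for Kcng4, in control replicate 1; Kcna2 to Kcnq1 (middle) are counted in all 6; Scn1a to Kcnd2 (right) are counted mainly in control replicate 1.

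Other channel genes were counted in all liver libraries. Kcna2 had 39, 51 and 51 counts in control and 64, 66 and 31 in heat stress. Cacna1a had 15, 10 and 9 counts against 7, 10 and 20, Kcnq1 10, 13 and 9 against 12, 10 and 19, and Cacna1d 25, 3 and 7 against 16, 18 and 13. Each of these overlapped between the groups. Of the remaining genes over 10 counts, Scn8a had 22, 4 and 3 counts against 15, 4 and 9 and failed the filter. None of the 7 genes tested in liver passed an adjusted p of 0.05 in edgeR (0% of 12296 genes did), and 0 of 7 passed an unadjusted p of 0.05, against 5.84% of all genes. The log2 fold change was 0.06 ± 0.34 for Kcna2 and 1.85 ± 1.90 for Cacna1s, and the latter became -1.81 without heat stress replicate 2. Without control replicate 1 and heat stress replicate 2, Cacna1s failed the filter, Kcna2 stood at -0.31 and Cacna1d, with the antisense overlap given above, at 1.30.

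The heat effects of brain and liver were compared in a fit of all 12 libraries. This fit took the libraries as independent, although brain and liver libraries may come from the same mice. Of 53 channel genes, 0 differed between the tissues at an adjusted p of 0.05 in edgeR, against 0.00632% of all genes, and 6 did at an unadjusted p below 0.05, against 9.64%. The count at the adjusted threshold was 0 as well without liver control replicate 1 and heat stress replicate 2. Among those 6 were Kcnd2, Scn1a, Cacna1b and Kcnq3. In Kcnd2, Scn1a, Cacna1b and Kcnq3 the liver values rest on control replicate 1 alone, with 9, 15, 6 and 11 counts there and 0 or 1 in the other libraries.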

How the data were processed

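The table holds the authors' deposited counts, whole numbers of reads per gene for 25239 genes in 12 libraries made from oligo-dT selected RNA with a stranded TruSeq kit. The study's methods describe the counting in more than 1 way. The submitters' processing notes name FastQC 0.11.9, Trimmomatic 0.39, HISAT2 2.2.1 and featureCounts of Subread 2.0.1, with mm10 as the genome, and the methods also name TopHat2 and HTSeq. The annotation and the strand setting of the counting are not given in the sources used here. Antisense exons also overlap other channel genes named here, among them Cacna1h by 158, Kcnd3 by 165, Kcnq5 by 237 and Kcng2 by 272 bases. The deposited tables of the authors' own comparisons, which hold log2 fold changes and p-values, were not used.

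Each tissue was fitted alone in edgeR 4.0.16 (R 4.3.3) with TMM scaling and the quasi-likelihood test, with Benjamini-Hochberg adjustment over all tested genes. The filter on low counts used a minimum of 10 counts, not required of every library, and 15 in all. A gene was called at an adjusted p below 0.05. The tissues were also fitted together for their difference and for the interaction with heat, with all 12 libraries taken as independent. DESeq2 1.42.0 (the study used 1.22.2), other scalings, other filters, a fit of all 12 libraries, a replicate block, each library left out and offsets for transcript length and GC content (splines with 4 degrees of freedom per library) were alternatives. Offsets for length alone and for GC alone were added after the data were seen. Length and coordinates are of the longest transcript and the gene in GENCODE M21 (mm10), which gave all 60 channel genes a length; promoters are the 250 bases before RefSeq start sites. The functions were tested on simulated counts. Named in full were up to 12 genes in each direction with the smallest unadjusted p below 0.05, the 10 highest per length, and a fixed list of 22; in liver those over 10 counts in a library and the muscle channels. Other genes named were chosen after their values were seen. The genes and lists were chosen with earlier results of these data known. The labels call the samples of a group replicates and the design text gives 3 animals per group, so p-values measure the spread between these samples. Some of these genes are not reported here by name, though counts over all genes include them.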

Additional observations from a re-analysis of the deposited data

How the results depend on the processing

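In brain, 0 channel genes were called in edgeR under any scaling, filter, offset, block or left-out library. In each of these settings 0 of all tested genes were called, so the count does not set the channel genes apart. In DESeq2, 5 of 31 were called lower, against 3.86% of 7769 genes. The count of channel genes lower at an unadjusted p below 0.05 was 15. It was 2 with length and GC offsets (against 5.02% of all tested genes). With these offsets and the replicate block it was 6 (4.50%), and with length offsets alone 6 (7.14%). It was 6 of 53 with all 12 libraries fitted together (4.10%) and 6 to 20 with 1 library left out (5.90% to 13.3%). It was 0 when a log2 fold change past 1 was also asked for, as the lowest of the 52 was -0.86. Scaling by library totals, RLE, the filters, GC offsets alone and the replicate block gave 13 to 18 (of 60 genes without a filter and of 48 with a stricter one), against 8.57% to 11.0% of all tested genes. The count of those higher was 0; it was 1 in DESeq2 and without a filter (Kcna5 in both; 6.77% and 7.38% of all tested genes), 1 with length and GC offsets (Scn3a; 6.38% of all tested genes), 1 with these and the block (Cacna1h; 6.00%), 3 with length offsets alone (9.31%), 1 with GC offsets alone (9.35%) and 0 to 1 with 1 library left out (4.85% to 13.6%). The median log2 fold change was -0.25, -0.054 with length and GC offsets, -0.059 with these and the block, -0.13 with length offsets alone and -0.36 to -0.20 with 1 library left out, the lowest without heat stress replicate 3. In liver 0 channel genes passed an unadjusted p of 0.05, against 1 of 48 in DESeq2 (3.51% of all tested genes), 3 of 49 without a filter (4.52%), 7 of 53 with all 12 libraries in one fit (8.77%), 1 of 7 with length and GC offsets (9.30%) and 0 to 2 with 1 library left out, the 2 of 8 without control replicate 1 (12.9%; 3.27% to 6.01% in the others). Of the auxiliary list 8 were lower and 2 higher: 4 were lower with offsets (5.02% of all tested genes) and 4 to 8 without 1 library (5.90% to 13.3%), and 1 was higher with the block (9.84%) and 0 to 4 without 1 library (4.85% to 13.6%). Of the related channels 1 was lower, 0 with offsets (5.02% of all tested genes) and 1 to 2 without 1 library (5.90% to 13.3%). Among the genes named in full, the log2 fold change changed sign with length and GC offsets in Cacna1d (0.015, and 0.0036 with the block), Cacna1e (0.030), Kcnh3 (0.087, and 0.10 with the block) and Scn2a (0.042, 0.049 with the block, and 0.15 with length offsets alone). Without 1 library it ran through 0 in Kcna4 (-0.031 to 0.30), Kcnh3 (-0.35 to 0.14) and Scn2a (-0.13 to 0.035). In liver it changed sign in Cacna1a (-0.037 with the block, -0.021 with offsets, -0.14 with both, and -0.53 to 0.34 without 1 library), Cacna1s (-1.81 to 4.79 without 1 library, the ends being without heat stress replicate 2 and control replicate 1), Kcna2 (-0.18 to 0.29 without 1 library and -0.31 without both libraries with muscle RNA) and Kcnq1 (-0.098 to 0.50 without 1 library). None of the genes that changed sign was called in edgeR, but in the main fits 0 of all tested genes were called in either tissue. That count therefore does not set these genes apart. The cause of these shifts was not tested.

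The replicate numbers do not pair the samples: in brain the deviations of equally numbered libraries correlated at -0.29, 0.19 and -0.20 over genes, and not every library correlated best with its own number. With the replicate block as a paired fit, 18 channel genes lay lower and 0 higher at an unadjusted p below 0.05, against 9.42% and 9.84% of all tested genes, 13 of them shared with the 15. In that fit 0 channel genes were called, and 0 of all tested genes. In liver 7 channel genes passed the filter on low counts, and the others entered only the fits with another filter, fewer libraries or all 12.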
